A study of Mus musculus with 16 samples.

Results

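Type II, type IX and type XI collagen together build the thin fibrils of cartilage, and their 6 genes were followed here in the bone that lies under the joint surface. Col2a1, Col9a1, Col9a2, Col9a3, Col11a1 and Col11a2 were found by name among the non-control probes of an Agilent mouse array. They had 11 of the 56605 probes, and all 11 passed the filter on dim probes, for which a probe had to rise well above background on 4 or more of the 16 arrays. The fit across genes held 28250 genes or unnamed transcripts, of which these are 6.

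Each array held RNA from the medial tibial subchondral bone of 1 joint of 1 male wild-type C57BL6 mouse (WT in every sample title). The mice were 10 to 12 weeks old when both knees were operated on, either by destabilization of the medial meniscus (DMM), which leads to osteoarthritis, or by a sham operation. Joints were taken 1 or 6 weeks later, so the 4 groups were sham at 1 week, DMM at 1 week, sham at 6 weeks and DMM at 6 weeks, with 4 joints each. The bone was cut by laser from 10 µm sections that were pooled within a joint, and 100 ng of RNA was labelled. Joints are numbered in the order of their records, and the numbers pair no joints. The arrays sat on 2 slides, with joints 1 and 2 of every group on slide 1 and joints 3 and 4 on slide 2. The time after surgery and the age of the mouse rise together in this design and cannot be told apart.

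Levels are log2 signals minus the 75th percentile of the same array, so a level of 0 is the 75th percentile and a step of 1 is a doubling. The 75th percentile ranged from 329 to 873 signal units, and between 65.1% and 79.5% of probes were well above background. Bone and marrow genes were present throughout: the osteoblast gene Bglap (osteocalcin), the osteoclast gene Acp5 and the erythroid gene Alas2 were above background on 16 of 16 arrays. Joint 2 of the sham group at 6 weeks was the dimmest array and stood apart on the first principal component (176.5, the other arrays -69.6 to 71.7), so results that rest on it are given with and without it. With bulk tissue, fewer cells of a type and less RNA per cell cannot be told apart.

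Type II collagen, made of Col2a1 chains alone, forms the body of the cartilage fibril. Type XI collagen combines the Col11a1 and Col11a2 chains with a chain encoded by Col2a1, lies in the fibril core and limits fibril width. Type IX collagen, a trimer of the Col9a1, Col9a2 and Col9a3 chains, sits on the fibril surface and links it to the rest of the matrix. Type XI chains are also made outside cartilage, where they mix with type V chains.

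The probes read different stretches of these messages. Glycine recurs at a fixed spacing along a collagen helix, and its codons all begin with GG. The second Col11a2 probe shows this repeat directly, with 6 glycine codons in capitals, and the same spacing of GG codons was found in 9 of 56605 probes (0.0159%), 4 of them among the 91 probes named for a collagen. The Col2a1 probe and the second Col9a1 probe hold no such repeat and are shown for contrast. The second Col9a1 probe lacks 1 of the RefSeq transcripts that the first Col9a1 probe is listed for, per the array files. Sequences are those in the array files, 5′ to 3′.
Col11a2, second probe, chromosome 17: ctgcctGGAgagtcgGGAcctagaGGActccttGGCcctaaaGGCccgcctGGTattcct
Col2a1, chromosome 15: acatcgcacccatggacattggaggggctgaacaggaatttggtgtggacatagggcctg
Col9a1, second probe, chromosome 1: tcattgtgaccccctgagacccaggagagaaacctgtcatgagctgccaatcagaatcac
Their mm9 positions are chr17:34189287-34189453 for Col11a2, chr15:97806485-97806544 for Col2a1 and chr1:24201545-24201604 for Col9a1, where the Col11a2 interval is wider than the 60 bases of the probe.

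**Figure D1:**
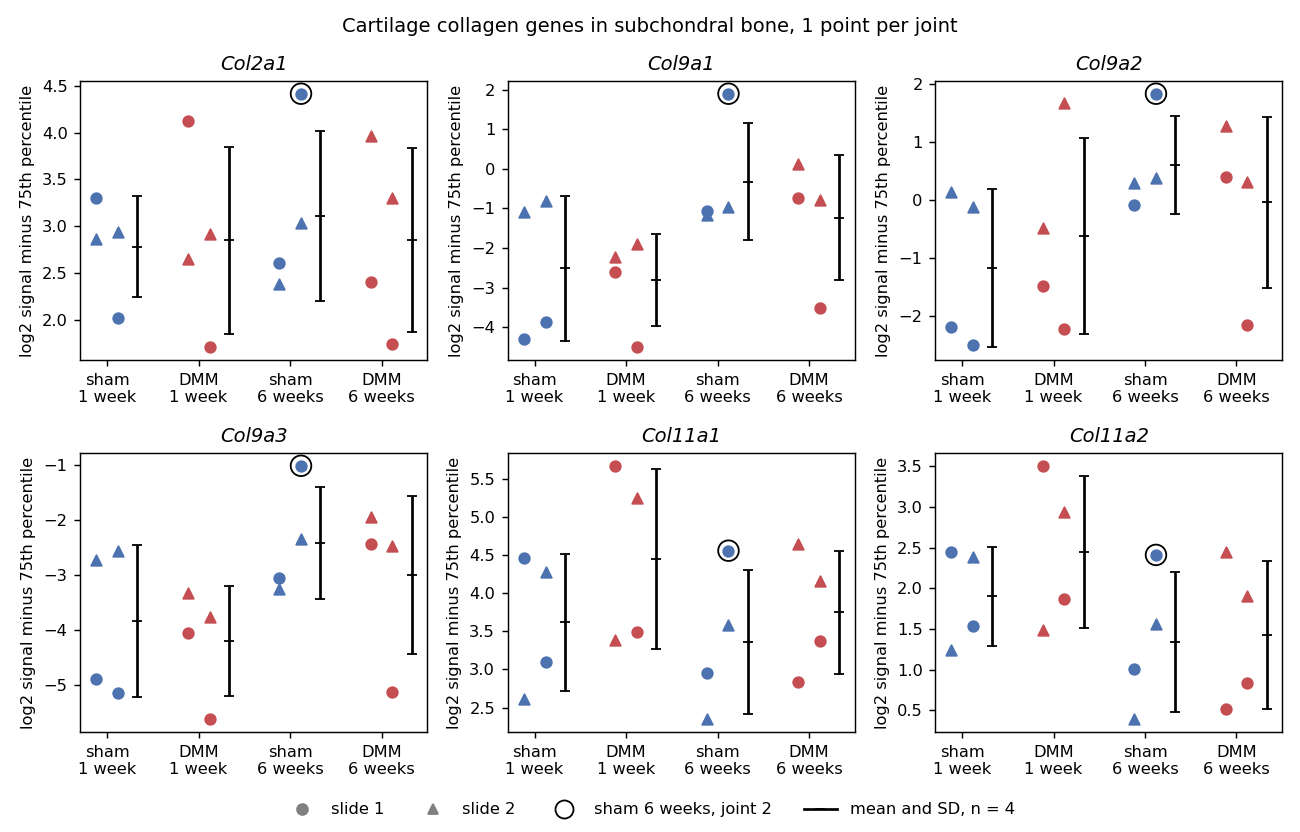
Level of each gene (log2 signal minus the array's 75th percentile) in the 4 joints of each group, with its brightest probe. Circles are slide 1, triangles are slide 2, bars are mean and SD, and the ringed point is joint 2 of the sham group at 6 weeks, which holds the highest value of Col2a1 and of the 3 type IX genes.

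Col2a1 was above background on every array and held much the same mean in all 4 groups. At 1 week its levels were 3.30, 2.02, 2.86 and 2.94 in the sham joints and 4.13, 1.70, 2.65 and 2.92 in the DMM joints. At 6 weeks they were 2.60, 4.42, 2.38 and 3.04 in the sham joints and 2.40, 1.73, 3.97 and 3.30 in the DMM joints. The groups overlapped fully, and the DMM joints spanned more than the sham joints at 1 week. Means were 2.78 ± 0.54 (SD, n = 4) and 2.85 ± 1.00 at 1 week and 3.11 ± 0.91 and 2.85 ± 0.98 at 6 weeks, for sham and DMM in that order. The difference between groups took up 2.62% of the variance of Col2a1, against a median of 15.04% over all genes.

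Col11a1 and Col11a2 were also above background on every array with all of their probes. Col11a1 was 4.47, 3.1, 2.62 and 4.28 in the sham joints and 5.67, 3.50, 3.39 and 5.25 in the DMM joints at 1 week. At 6 weeks it was 2.95, 4.56, 2.34 and 3.59 after sham and 2.83, 3.37, 4.64 and 4.16 after DMM. Joints 1 and 4 of the DMM group at 1 week were the highest of all 16, and every pair of groups overlapped. Col11a2 was 2.45, 1.53, 1.24 and 2.38 after sham and 3.51, 1.87, 1.48 and 2.94 after DMM at 1 week. Its levels at 6 weeks were 1.01, 2.41, 0.39 and 1.56 after sham and 0.51, 0.83, 2.45 and 1.91 after DMM. It ordered the joints much as Col11a1 did, with the same pair of DMM joints on top at 1 week and sham joint 3 at the bottom at 6 weeks.

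Type IX genes had the widest swings. Col9a1 was -4.31, -3.87, -1.09 and -0.80 in the sham joints and -2.61, -4.51, -2.23 and -1.89 in the DMM joints at 1 week. At 6 weeks it was -1.07, 1.90, -1.16 and -0.97 after sham and -0.73, -3.51, 0.12 and -0.79 after DMM. From the lowest joint to the highest this is a range of 6.42 on the log2 scale, or 85.5-fold. The low joints were sham 1 and 2 and DMM 2 at 1 week and DMM 2 at 6 weeks, all on slide 1, and the high one was sham joint 2 at 6 weeks, also on slide 1.

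Col9a2 was -2.20, -2.51, 0.13 and -0.13 after sham and -1.48, -2.22, -0.48 and 1.67 after DMM at 1 week. At 6 weeks its levels were -0.092, 1.83, 0.30 and 0.38 after sham and 0.40, -2.15, 1.27 and 0.31 after DMM. Its 4 lowest joints were those of Col9a1, while DMM joint 4 at 1 week was second highest here. Col9a3 was -4.90, -5.15, -2.72 and -2.56 after sham and -4.05, -5.63, -3.33 and -3.77 after DMM at 1 week. At 6 weeks it was -3.06, -1.01, -3.25 and -2.35 after sham and -2.43, -5.13, -1.95 and -2.47 after DMM. The Col9a3 probe was well above background on 13 of 16 arrays, and the joints where it was not were sham 2 and DMM 2 at 1 week and DMM 2 at 6 weeks.

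Joints of 1 group differed widely in these genes. The residual SD of the fit is the spread between joints of the same surgery and time, and it includes any difference between the slides. It was 1.53 for Col9a1, 1.38 for Col9a2 and 1.23 for Col9a3, against a median of 0.43 over all genes. Those values lie at the 99.6, 99.4 and 98.7 percentile of all 28250 genes. Col11a1 (0.97), Col2a1 (0.88) and Col11a2 (0.84) lay at the 95.1, 92.3 and 90.5 percentile. The residual SD of Col9a1 was 1.40 without sham joint 2 at 6 weeks, and the percentile of the residual SD of Col9a1 was 99.5. Other processing changed some of these values. The residual SD of Col9a3 was 0.56 with normexp background correction and quantile scaling. With no filter on dim probes the percentiles of Col2a1 and Col11a2 were 88.6 and 86.5. With 1 joint left out they fell as low as 88.1 and 87.5, both without DMM joint 1 at 1 week.

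Some genes were read by more than 1 probe. Over the 16 arrays the 3 Col11a1 probes correlated with the 2 Col11a2 probes and with each other at r = 0.71 to 0.95 (10 pairs of probes). The second Col9a3 probe followed the first (r = 0.90), although it was above background on only 6 arrays and on 0 of 4 in the DMM group at 1 week, so no difference from that group is given for it. The Col9a1 probes parted more. The second one correlated with the other at r = 0.72 and spanned 2.50 on the log2 scale in place of 6.42, with an SD over the arrays of 0.58 in place of 1.72. In the sham joints it was -3.10 to -2.49 at 1 week and -3.07 to -1.10 at 6 weeks, and its difference between the times after sham was 0.31 ± 0.38 in place of 2.19 ± 0.98 (each ± is the standard error of the fit).

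**Figure D2:**
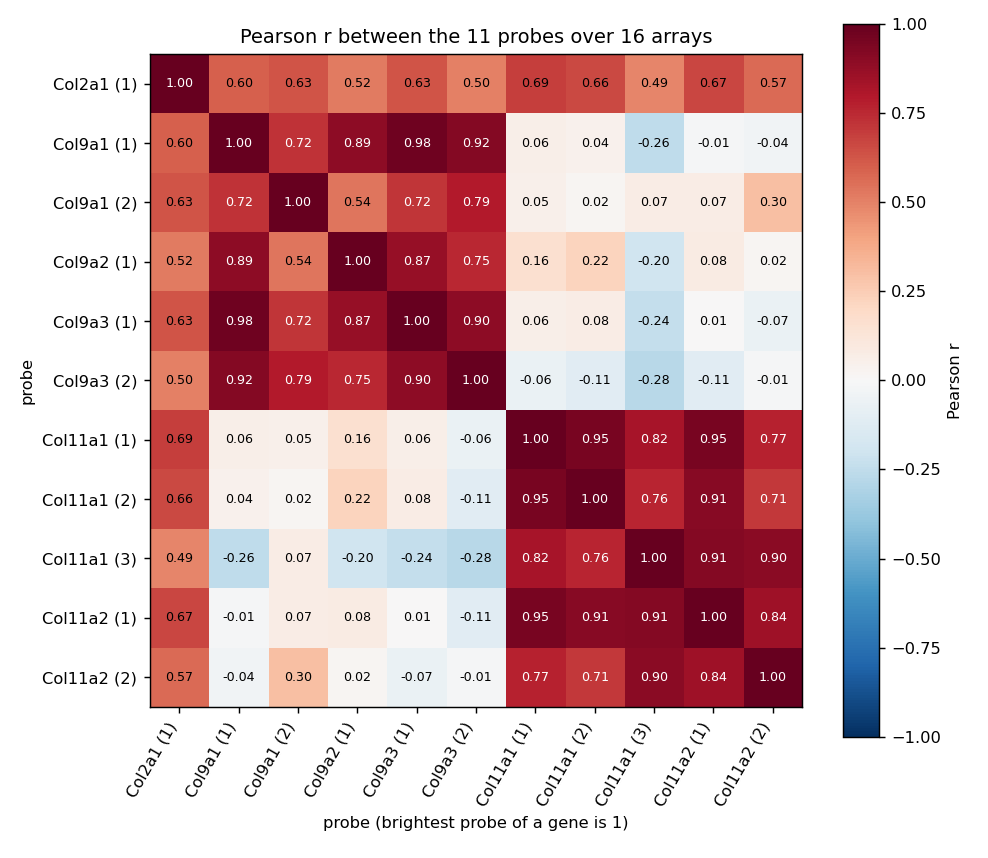
Pearson r between each pair of the 11 probes over 16 arrays, with the brightest probe of a gene numbered 1. Probes of type IX genes form 1 block and probes of type XI genes another (r between blocks -0.28 to 0.30), and the Col2a1 probe lies between (0.49 to 0.69 with every other probe).

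The members did not vary as 1 group. Type IX genes varied together, type XI genes varied together, and the 2 types did not. Col9a1 and Col9a3 correlated at r = 0.98 over the 16 joints (rho = 0.97), and Col11a1 and Col11a2 at r = 0.95 (rho = 0.96). For both pairs the permutation p was 1e-05, the smallest that 100000 resamples can give, and the adjusted p over the 15 pairs of genes was 7.5e-05. The permutations over 16 joints shuffled them across groups and slides, so differences shared by a group or a slide enter these p. Col9a2 correlated with Col9a1 at r = 0.89 (rho = 0.84) and with Col9a3 at r = 0.87 (rho = 0.83), each with a permutation p of 3e-05 (adjusted p = 0.000112). The 6 pairs of a type IX and a type XI gene had r between -0.0087 and 0.16, rho between 0.018 and 0.21, and adjusted permutation p from 0.83 to 0.984. Without the 2 joints farthest from the median of the first gene, r was 0.81 to 0.97 within type IX, 0.91 for the type XI pair, and -0.092 to 0.13 between the types. Without sham joint 2 at 6 weeks the corresponding values were 0.84 to 0.97, 0.95 and -0.14 to 0.082.

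Within slides the type XI pair held at r = 0.95 on slide 1 and 0.97 on slide 2, and Col9a1 with Col9a3 at 0.99 and 0.88. Col9a2 did not hold: it followed Col9a1 (r = 0.98) and Col9a3 (0.99) on slide 1, but on slide 2 the values were 0.24 and -0.060. On slide 2, where DMM joint 4 at 1 week was high in Col9a2 and in both type XI genes, Col9a2 correlated with Col11a1 at 0.64 and with Col11a2 at 0.57 over 8 joints. With the mean of each group subtracted, r between the types rose to between 0.32 and 0.41 (6 pairs), while it was 0.87 to 0.97 within type IX and 0.98 for the type XI pair.

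Col2a1 lay between the types, and 4 of its 5 correlations passed over all 16 joints. With Col11a1 it had r = 0.69 (permutation p = 0.00359, adjusted p = 0.0108, rho = 0.73) and with Col11a2 r = 0.67 (p = 0.00473, adjusted p = 0.0118, rho = 0.73). With Col9a3 it had r = 0.63 (permutation p = 0.00957, adjusted p = 0.0205, rho = 0.59), with Col9a1 r = 0.60 (p = 0.0144, adjusted p = 0.027, rho = 0.52), and with Col9a2 r = 0.52 (p = 0.0392, adjusted p = 0.0654, rho = 0.49). Without the 2 joints farthest from the median of Col2a1 these were 0.57 and 0.55 for type XI and 0.68, 0.59 and 0.61 for Col9a3, Col9a1 and Col9a2. Without sham joint 2 at 6 weeks, r was 0.69 and 0.68 with type XI but 0.51, 0.44 and 0.40 with Col9a3, Col9a1 and Col9a2. The calls did not all last: those with Col9a3 and Col9a1 ended without that joint (adjusted permutation p = 0.116 and 0.192), and those with Col11a1, Col11a2 and Col9a1 ended without the 2 farthest joints. Within slides r with type XI was 0.73 to 0.81 on slide 1 and 0.60 on slide 2, and with type IX it was 0.54 to 0.62 and 0.49 to 0.74. For none of the 6 genes did the correlation with the share of probes above background pass (r from -0.15 to 0.28 over 16 arrays, lowest adjusted permutation p = 0.908, 6 relations). Within slides this r was 0.095 to 0.46 on slide 1 and -0.44 to 0.20 on slide 2. Correlations with other measures of array quality were not tested.

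**Figure D3:**
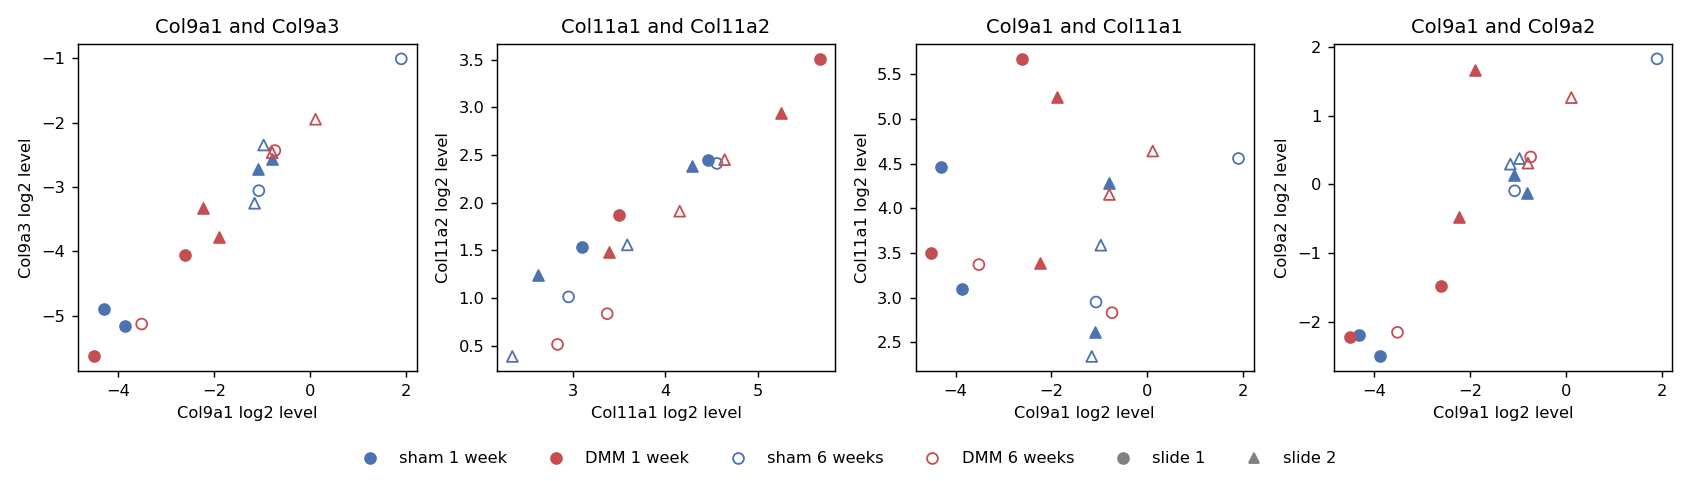
Levels of 4 pairs of genes in the 16 joints (log2 signal minus the 75th percentile on both axes). Blue is sham, red is DMM, filled is 1 week, open is 6 weeks, circles are slide 1 and triangles slide 2. Col9a1 with Col9a3 and Col11a1 with Col11a2 lie along lines, Col9a1 with Col11a1 does not, and in the last panel DMM joint 4 at 1 week has Col9a2 at 1.67 with Col9a1 at -1.89.

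By a rule that ranks all other genes with a current symbol by Pearson r with the mean of the 6 standardised members, the closest over 16 joints were Trpv4, a mechanically activated cation channel of chondrocytes (r = 0.87), the small GTPase gene Rras (0.87), Susd5 (0.85) and Hapln1, the link protein that ties aggrecan to hyaluronan (0.83). After the 2 blocks had been seen, the same ranking was made for each block, as a description. The genes most like the mean of the type IX genes were Hapln1 (r = 0.97; 0.98 and 0.93 within slides), Cnmd, which encodes the cartilage growth regulator chondromodulin (0.96), the matrilin gene Matn3 (0.94), Ncmap (0.94), Ucma (0.93) and Snorc (0.93). The first 10 also held Dnajc27 (0.88), the cartilage lectin Clec3a (0.87), Mia (0.86) and Acan, the aggrecan core protein (0.85). Within slide 2 these were looser, with r of 0.39 for Clec3a, 0.44 for Acan and 0.52 for Ucma. Those most like the mean of the type XI genes were Lox, the enzyme that starts collagen crosslinking (0.97 overall and within each slide), the carboxypeptidase genes Cpz (0.97) and Cpe (0.96), Entpd3 (0.97), and Col5a2, a chain of type V collagen (0.95). Col2a1 was most like Rxrg (0.89), Susd5 (0.89) and Ddah2 (0.89). At the other end were Larp4b for all 6 members (r = -0.85), Gm16159 for type IX (-0.86), Chtf18 for type XI (-0.84) and Ccdc125 for Col2a1 (-0.88).

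Some lists of cell type markers divided in a like way. Of 25 measured genes of cartilage matrix and chondrocytes other than the members, 14 had r above 0.5 with the type IX mean and 5 with the type XI mean. Of 11 osteoblast genes, 0 had it with type IX and 10 with type XI, among them Sp7, the osteoblast transcription factor osterix (r = 0.070 and 0.88), and Col1a1 (-0.12 and 0.81). The share of all 28244 other genes with r above 0.5 was 4.78% for type IX and 6.85% for type XI. Of 7 genes of synovium, tendon and ligament, 1 passed that mark with type IX and 4 with type XI, and of 8 erythroid genes 2 and 0 did. Of 6 osteocyte genes 0 passed it with type IX and 3 with type XI. Matn1, a cartilage matrilin, and the tendon gene Tnmd did not pass the filter on dim probes. The 5 cartilage genes above 0.5 with type XI were Pla2g5 (0.87), Pth1r (0.76), Frzb (0.68), Susd5 (0.63, with 0.59 for type IX) and Sox9 (0.58). Prg4 (0.17), Matn4 (-0.084) and Cilp (-0.31) were among the cartilage genes that did not reach 0.5 with type IX.

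The mean levels of the cartilage and osteoblast lists gave a like picture joint by joint. The cartilage list, whose mean level ranged from -2.31 to -1.03 after sham and -2.0 to -0.81 after DMM at 1 week and from -0.66 to 0.66 and -2.05 to -0.15 at 6 weeks, correlated with Col9a1 at r = 0.94 (rho = 0.84; permutation p = 1e-05, adjusted p = 0.000165 over 66 relations). For Col9a3 this r was 0.91, for Col9a2 0.81, for Col2a1 0.68, for Col11a1 0.15 and for Col11a2 0.099. The osteoblast list, all of whose 11 genes were above background on 16 arrays, ranged from 4.14 to 4.71 and 4.34 to 5.20 at 1 week and from 3.67 to 4.81 and 3.95 to 4.78 at 6 weeks, sham before DMM. It correlated with Col11a2 at r = 0.96 and with Col11a1 at 0.94 (adjusted permutation p = 0.000165 for each), with Col2a1 at 0.66, and with Col9a1, Col9a3 and Col9a2 at 0.028, 0.048 and 0.16. Within slides the osteoblast list held with both type XI genes at r = 0.92 to 0.96, and the cartilage list with Col9a1 at 0.95 and 0.79 and with Col9a3 at 0.92 and 0.79. Col9a2 followed the cartilage list on slide 1 (r = 0.92) but not on slide 2 (r = 0.12), where its r with the osteoblast list was 0.61. With group means removed, the osteoblast list had r = 0.47, 0.45 and 0.46 with Col9a1, Col9a2 and Col9a3, and the cartilage list had r = 0.43 and 0.52 with Col11a1 and Col11a2. Over all 16 joints Col9a1 and Col9a3 thus went with the mean of the cartilage list and both type XI genes with the mean of the osteoblast list. This division was less sharp within groups and did not hold for Col9a2 on slide 2, nor for every gene of the cartilage list. The part of either cell type in the levels of the 6 genes was not tested. These list correlations were added after the values were seen. The list of synovium, tendon and ligament genes correlated with Col11a2 at r = 0.76 and with Col11a1 at 0.68 (adjusted permutation p = 0.00671 and 0.0356). For the osteocyte list these r were 0.63 and 0.60 (adjusted permutation p = 0.058 and 0.0834). None of the other marker lists had an adjusted permutation p under 0.05 with any of the 6 genes.

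**Figure D4:**
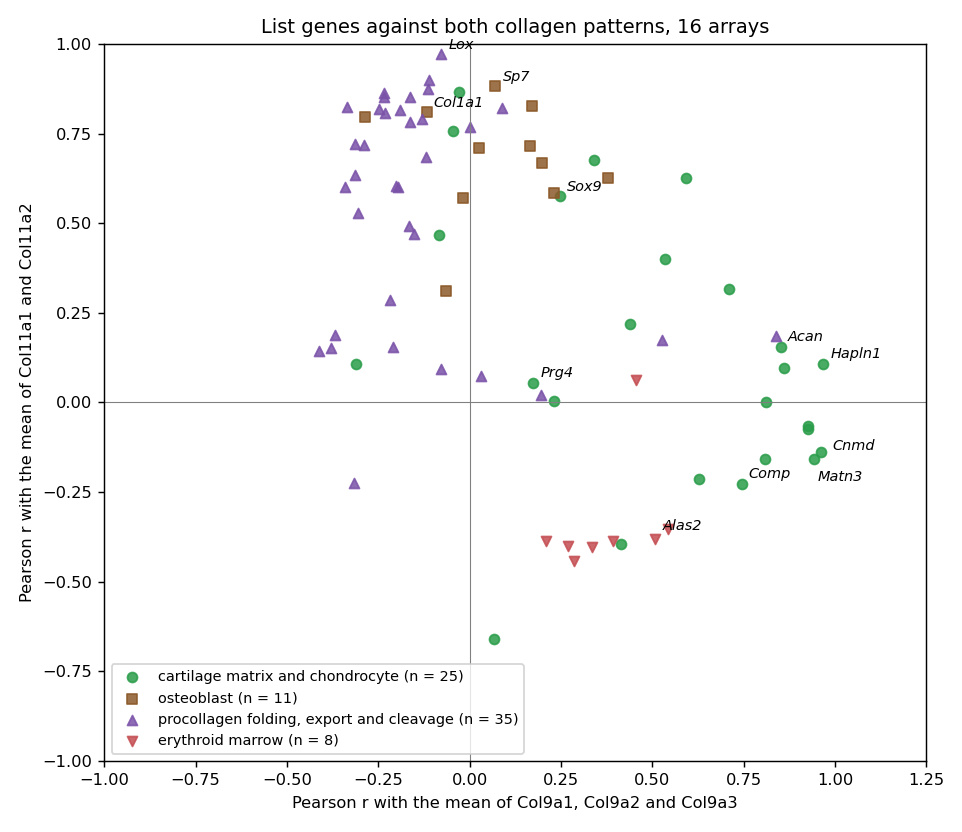
Each point is 1 gene of a list, placed by its Pearson r over 16 arrays with the mean of the 3 standardised type IX genes (horizontal) and of the 2 type XI genes (vertical). Some cartilage genes, such as Hapln1, Cnmd, Matn3 and Acan, lie at the right, and others, such as Prg4, do not. Osteoblast genes such as Sp7 and Col1a1 and most genes of procollagen folding and export lie at the top.

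Of 23 measured partners of collagen fibrils, 4 had r above 0.5 with type IX, which were Matn3 (0.94), Prelp (0.81), Chad (0.81) and Comp (0.74), while 17 had it with type XI, among them Col5a2 (0.95), Col5a1 (0.94), Col24a1 (0.93) and the small proteoglycan gene Dcn (0.87). Chad, Comp, Matn3 and Matn4 are in the cartilage list too, and Col1a1 and Col1a2 in the osteoblast list. Of 35 genes that fold, export, cleave or crosslink procollagen, 22 had r above 0.5 with type XI, among them the collagen chaperone gene Serpinh1 (0.82) and the prolyl hydroxylase gene P4ha2 (0.87). Only Pcolce2 (0.84) and Colgalt2 (0.53) had it with type IX. The examples given for these lists were chosen after their values were seen. Of 17 genes that degrade or bind collagen, 0 had it with type IX and 9 with type XI, including the collagen-binding integrin gene Itga10 (0.88) and the gelatinase gene Mmp2 (0.90). Of 14 genes tied to the transcription of these collagens in chondrocytes, 2 had r above 0.5 with type IX (Wwp2 and Hoxd13, 0.57 and 0.53). With type XI 4 had it (Mef2c, Sox9, Runx2 and Trps1). Sox9, the master regulator of chondrocytes, had r = 0.70 with Col2a1, 0.25 with type IX and 0.58 with type XI, and its partners Sox5 and Sox6 had 0.44 and 0.41 with type IX, below that mark.

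The starts of 4 of the genes could be read from RefSeq's table for GRCm38.p6, as the 250 bases before each transcript start, and are shown as a description. A link between these windows and the separate blocks of type IX and type XI genes was not tested. Capitals mark GGGCGG, the core of a GC box, or TATAAA, on either strand.
Col9a1, first start, chr1:24177360-24177609, plus strand: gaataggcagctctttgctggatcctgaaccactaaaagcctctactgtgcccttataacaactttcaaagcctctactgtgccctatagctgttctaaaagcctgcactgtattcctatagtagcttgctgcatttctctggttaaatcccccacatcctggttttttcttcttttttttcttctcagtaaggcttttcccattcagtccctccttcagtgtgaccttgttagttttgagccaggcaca
Col9a1, second start, chr1:24194953-24195202, plus strand: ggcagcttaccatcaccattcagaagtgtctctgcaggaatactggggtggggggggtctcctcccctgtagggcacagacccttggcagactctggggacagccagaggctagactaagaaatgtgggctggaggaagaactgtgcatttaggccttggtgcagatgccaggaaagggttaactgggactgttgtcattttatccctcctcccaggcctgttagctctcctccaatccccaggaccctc
Col9a2, chr4:121039316-121039565, plus strand: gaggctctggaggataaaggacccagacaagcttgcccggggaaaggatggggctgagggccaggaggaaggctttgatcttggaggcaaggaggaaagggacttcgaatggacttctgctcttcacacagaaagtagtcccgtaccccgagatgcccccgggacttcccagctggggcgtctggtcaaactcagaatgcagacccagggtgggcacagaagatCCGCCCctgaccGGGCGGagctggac
Col11a1, chr3:114030290-114030539, plus strand: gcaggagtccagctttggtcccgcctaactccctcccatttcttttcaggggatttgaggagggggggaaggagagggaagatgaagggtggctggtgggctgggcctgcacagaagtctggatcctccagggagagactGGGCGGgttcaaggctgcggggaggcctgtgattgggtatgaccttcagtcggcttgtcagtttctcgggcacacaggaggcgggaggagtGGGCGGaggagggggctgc
Col11a2, chr17:34038888-34039137, plus strand: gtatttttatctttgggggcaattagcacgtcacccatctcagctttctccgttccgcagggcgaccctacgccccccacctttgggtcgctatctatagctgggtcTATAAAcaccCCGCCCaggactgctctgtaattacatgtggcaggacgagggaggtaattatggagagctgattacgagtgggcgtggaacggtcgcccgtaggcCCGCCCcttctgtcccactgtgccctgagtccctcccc
GGGCGG occurs at 2 places each in the windows of Col9a2, Col11a1 and Col11a2 and in neither Col9a1 window, and 32.7% of all 32851 windows of this length hold it. TATAAA occurs once, in the Col11a2 window, from 143 to 138 bases before the start (12.4% of all windows). Short stretches of the kind that SOX proteins bind were searched on both strands and occur in none of these windows. They were ACAAAG, which 16.5% of all windows hold, then ACAATG, which 3512 windows hold, and lastly AACAAT, which 9.42% hold. Both Col9a1 windows hold 0 CpG, against a median of 6, and have a GC content of 43.6% and 56.0%, while Col9a2, Col11a1 and Col11a2 hold 9, 7 and 14 CpG at 60.4%, 62.4% and 57.6% GC.

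Destabilization was compared with sham at 1 week first. Of the 6 members 4 were higher and 2 lower after DMM, with a median difference of 0.31 over the members and 0.0032 over all genes. None passed limma's threshold of an adjusted p under 0.05, which 0% of 28250 genes did, and none had an unadjusted p under 0.05, which 273 genes did (0.347% higher and 0.619% lower). Col11a1 was higher by 0.84 ± 0.62 (means 4.45 ± 1.18 SD against 3.62 ± 0.90, n = 4 each; 0.80 and 0.87 within slides; limma adjusted p = 1.0). Col11a2 was higher by 0.55 ± 0.54 (0.70 and 0.40 within slides). For both of them the upper values came from joints 1 and 4, and 2 of 4 DMM joints lay above the sham mean. Without DMM joint 1 the differences were 0.43 for Col11a1 and 0.20 for Col11a2. Col9a2 differed by 0.55 ± 0.88, Col2a1 by 0.070 ± 0.57, Col9a1 by -0.29 ± 0.98 and Col9a3 by -0.36 ± 0.79, each less than its standard error. The 95% intervals allow a change of -2.38 to 1.79 for Col9a1 and of -1.14 to 1.28 for Col2a1.

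At 1 week the groups of genes around these collagens also differed without a call. Of the 35 genes of procollagen folding and export 32 were higher after DMM (median 0.20), with 0 past the threshold, and the lysyl oxidase gene Loxl2 (0.52 ± 0.25), Pcolce (0.64 ± 0.34) and P4ha3 (0.57 ± 0.32) had the largest ratios to their error. Of 23 fibril partners 22 were higher (median 0.39), led by Col3a1 (1.70 ± 0.86), Fmod (0.88 ± 0.52) and Col6a1 (0.58 ± 0.37). Of 25 cartilage genes 17 were higher (median 0.090), with Cilp at 1.97 ± 0.87 and Col10a1, a collagen of hypertrophic cartilage, at 2.22 ± 1.07. Of 11 osteoblast genes 9 were higher (median 0.32). These shifts leaned on single joints, by a check added after the values were seen. Without DMM joint 1 the folding list had 22 of 35 genes higher (median 0.055) and the fibril partners 18 of 23 (median 0.24), and without sham joint 3 the folding list had 27 of 35 (median 0.056). The osteoblast median was 0.12 without DMM joint 4 and 0.19 without sham joint 3, and the cartilage list turned without sham joint 1 (10 of 25 higher, median -0.046). The genes of a list vary together, so these counts are not counts of independent results.

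At 6 weeks 2 members were higher and 4 lower after DMM (median -0.42, all genes -0.023), and none passed, as 0% of all genes did. Unadjusted p was under 0.05 for 0 of 6 members and for 220 of all genes (0.216% higher, 0.563% lower). Col9a1 differed by -0.91 ± 0.98 (means -1.23 ± 1.58 SD against -0.32 ± 1.49), Col9a2 by -0.65 ± 0.88, Col9a3 by -0.58 ± 0.79 and Col2a1 by -0.26 ± 0.57. Col11a1 differed by 0.39 ± 0.62 and Col11a2 by 0.086 ± 0.54. The slides disagreed for all 6 genes: on slide 1 the differences were -2.54 to -0.65, and on slide 2 they were 0.45 to 1.43. Without sham joint 2 the type IX differences shrank to -0.17, -0.24 and -0.11, Col2a1 became 0.18, and Col11a1 and Col11a2 became 0.79 and 0.44. Without DMM joint 2, the lowest of its group in all 3 type IX genes, Col9a1 was -0.15 and Col9a2 (0.056), Col9a3 (0.13) and Col2a1 (0.12) turned. The sign of Col11a2 turned without sham joint 1 or 3 or DMM joint 3 or 4 (-0.26 to -0.025). Of the 25 cartilage genes 21 were lower after DMM (median -0.64), led by the lubricin gene Prg4 (-2.30 ± 0.87), and 0 passed. That count is 17 of 25 (median -0.33) without sham joint 2 and 17 of 25 (median -0.20) without DMM joint 2. The slides disagreed for this list too, with 3 of 25 genes higher on slide 1 (median -1.95) and 19 of 25 on slide 2 (median 0.47).

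The difference between the DMM effects at 6 and at 1 week was below 0 for all 6 members, from -1.20 ± 1.24 for Col9a2 to -0.22 ± 1.11 for Col9a3, and none passed, as 0% of all genes did (193 genes with an unadjusted p under 0.05, 0.347% higher and 0.336% lower, and 0 members). This direction rests on single joints for 3 of them. Col2a1, Col9a1 and Col9a3 gave 0.11, 0.13 and 0.25 without sham joint 2 at 6 weeks, and without DMM joint 2 at 6 weeks they gave 0.046, 0.15 and 0.50. Col2a1 also turned without DMM joint 1 at 1 week (0.0999), and Col9a3 without sham joint 1 (0.14), sham joint 2 (0.22) or DMM joint 3 (0.073) at 1 week. The slides had opposite signs for 5 of the 6.

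**Figure D5:**
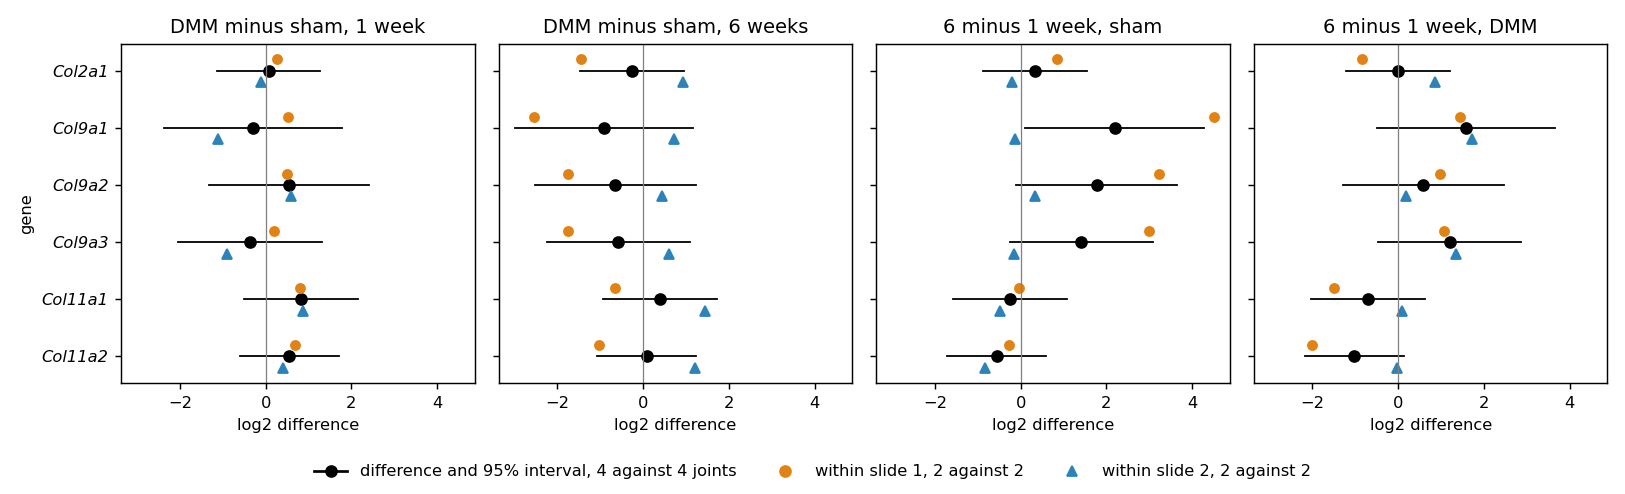
Log2 differences of the 6 genes in 4 comparisons: black points with 95% intervals from the fit over 4 against 4 joints, orange circles within slide 1 and blue triangles within slide 2 (2 against 2 joints). At 6 weeks the DMM differences have opposite signs on the slides for all 6 genes. The black points of the type IX genes lie to the right in both time comparisons. On slide 2 after sham, Col9a1 and Col9a3 lie to the left.

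Time was compared within each surgery. After sham, the type IX genes were higher at 6 weeks than at 1 week and the type XI genes lower, with medians of 1.78 and -0.41 against 0.043 for all genes. Col9a1 was higher by 2.19 ± 0.98 (means -0.32 ± 1.49 SD and -2.52 ± 1.83), Col9a2 by 1.78 ± 0.88 and Col9a3 by 1.42 ± 0.79, each above the 1 week mean in 4 of 4 joints. None passed the threshold (lowest limma adjusted p = 0.677, for Col9a1), as 0% of all genes did. Of the members, 1 (Col9a1) had an unadjusted p under 0.05 in limma, as 2020 genes had, 3.43% of all genes on the higher and 3.72% on the lower side. This lay on slide 1, where the type IX differences were 4.51, 3.22 and 2.99, while on slide 2 they were -0.12, 0.33 and -0.16. Without sham joint 2 at 6 weeks they were 1.45, 1.37 and 0.95. Col11a1 and Col11a2 differed by -0.26 ± 0.62 and -0.56 ± 0.54, and Col2a1 by 0.33 ± 0.57 (-0.11 without that joint).

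After DMM the directions of both types were the same as after sham, with medians of 1.20 for type IX and -0.86 for type XI (0.026 for all genes). Col9a1 was higher at 6 weeks by 1.58 ± 0.98 (1.44 and 1.72 within slides), Col9a3 by 1.20 ± 0.79 (1.06 and 1.34) and Col9a2 by 0.58 ± 0.88 (0.97 and 0.19). The second Col9a1 probe moved less, with means of -3.27 at 1 week and -2.81 at 6 weeks after DMM. Col11a2 differed by -1.02 ± 0.54, and Col11a1 differed by -0.70 ± 0.62. For Col11a2, joint 3 at 6 weeks lay at the 1 week mean (2.45 for both) and the other joints lay below it. Both type XI differences lay on slide 1 (-2.02 and -1.48), with -0.032 and 0.081 on slide 2. Col2a1 differed by 0.0018 ± 0.57. None passed (lowest limma adjusted p = 0.597, for Col11a2), as 0% of all genes did, and 0 members had an unadjusted p under 0.05, which 2741 genes had (4.91% higher and 4.79% lower). In each of the 4 comparisons the groups overlapped for all 6 genes. Groups of all genes were fully separated on the higher and lower side for 0.372% and 0.726% (DMM at 1 week), 0.135% and 0.365% (DMM at 6 weeks), 2.18% and 3.15% (time after sham) and 2.80% and 2.43% (time after DMM).

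A comparison of the times averaged over both surgeries was added after the values were seen and has the highest precision, with 8 joints against 8. It called 247 of 28250 genes (0.874%) and 0 of the 6 members, of which 2 (Col9a1 and Col9a3) had an unadjusted p under 0.05 in limma, as 7.59% of all genes did on the higher and 8.18% on the lower side. All 6 overlapped between the times, and 0.372% and 0.287% of all genes were separated, higher and lower. Col9a1 differed by 1.89 ± 0.69 (higher than the 1 week mean in 7 of 8 joints; limma adjusted p = 0.183), Col9a3 by 1.31 ± 0.56, Col9a2 by 1.18 ± 0.62, Col11a2 by -0.79 ± 0.38, Col11a1 by -0.48 ± 0.44 and Col2a1 by 0.16 ± 0.40. Signs within slides were alike for all 6, with Col9a1 at 2.97 and 0.80. These Col9a1 values are those of its brightest probe. The means of its second probe lay closer together, at -2.83 after sham and -3.27 after DMM at 1 week, and -2.52 and -2.81 at 6 weeks. The 247 calls depend on single joints. They became 1502 without sham joint 2 at 6 weeks, 695 without DMM joint 3 at 1 week, 490 without DMM joint 3 at 6 weeks and 311 without sham joint 3 at 1 week, and 0 to 3 without any 1 of the other 12. Averaged over times, DMM against sham gave 0.61 ± 0.44 for Col11a1 and -0.60 ± 0.69 for Col9a1, and 0% of genes were called (unadjusted p under 0.05 for 0.294% higher and 0.644% lower, and for 0 members).

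After sham 21 of 25 cartilage genes were higher at 6 weeks (median 1.05), led by Chad (2.06 ± 0.51), Col10a1 (3.57 ± 1.07) and Cytl1 (3.63 ± 1.17), and after DMM 15 of 25 were (median 0.26). Genes of procollagen folding and export were lower in 29 of 35 cases after sham (median -0.56), among them Crtap, part of the prolyl hydroxylation complex (-0.81 ± 0.28), and the lysyl hydroxylase gene Plod1 (-0.69 ± 0.24), and in 30 of 35 after DMM (median -0.71). Of 17 genes that degrade or bind collagen 16 were lower after sham and 15 after DMM. Of 11 osteoblast genes 9 were lower after each surgery (medians -0.33 and -0.44), and 8 of 8 erythroid genes were higher after each (medians 0.84 and 1.49). After sham 23 of 25 cartilage genes were higher on slide 1 (median 1.33) and 17 of 25 on slide 2 (median 0.47). Without sham joint 2 at 6 weeks 18 of 25 were higher after sham (median 1.12). The osteoblast median after sham ranged from -0.56 to -0.15 with 1 joint left out. On slide 2 after DMM 6 of 11 osteoblast genes were higher. Markers of some other tissues were higher at 6 weeks after sham as well: 5 of 5 adipocyte genes (median 1.40), 5 of 5 skeletal muscle genes (1.07) and 6 of 6 B cell genes (0.77). After DMM 0 of 5, 4 of 5 and 5 of 6 of these were (medians -0.12, 0.75 and 0.52). The muscle list mean was -0.69 in sham joint 3 at 6 weeks and -3.88 to -3.31 in the other sham joints. Lower after sham were 7 of 7 osteoclast genes (median -0.83), 5 of 7 of synovium, tendon and ligament (-0.47) and 5 of 7 neutrophil genes (-0.20). So were 4 of 6 osteocyte genes (-0.094) and 3 of 5 endothelium genes (-0.16). The part of these tissues in the differences over time was not tested. None of these passed within a surgery. In the averaged comparison the called genes of these lists were Chad (1.68 ± 0.36) and Sox6 (1.20 ± 0.25), which rose, and Col6a1 (-1.29 ± 0.26), Col6a2 (-1.26 ± 0.28), Col12a1 (-1.43 ± 0.32), Mmp9 (-0.80 ± 0.12) and Adamts4 (-1.25 ± 0.25), which fell, with limma adjusted p of 0.0347 to 0.0486. The erythroid gene Alas2 (1.30 ± 0.27, limma adjusted p = 0.0434) and the muscle gene Mylpf (1.16 ± 0.26, limma adjusted p = 0.0487) rose too. The averaged comparison called 0.874% of all genes, and without any 1 of 12 joints only 0 to 3 calls were left.

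Slides differed for the type IX genes. In a fit with group and slide, levels on slide 2 were higher by 1.48 ± 0.50 for Col9a2 (limma adjusted p = 0.0717), 1.24 ± 0.63 for Col9a1 and 1.12 ± 0.49 for Col9a3. For Col2a1, Col11a1 and Col11a2 the differences were 0.22 ± 0.41, -0.023 ± 0.45 and 0.028 ± 0.39. Of all genes 3474 were called between slides (12.3%), 161 of them higher on slide 2, and 0 of the 6 members were. With the slide as a block Col9a1 over time after sham had an adjusted p of 0.524 in limma and Col9a2 of 0.522. The part of the slide in the type IX differences was not tested further.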

How the data were processed

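RNA of 16 joints was hybridised to Agilent 1-colour arrays. Per the file headers, the authors' scanner software Feature Extraction 10.7.3.1 wrote each deposited intensity after background correction, with probe positions on mm9. The authors also deposited a table read as log2 values, made with limma 3.20.9 per the submitters' processing notes; its centring is not given in the sources used here. Other deposited spot calls mark signals well above background, saturation and outliers. Here log2 intensities were centred on the 75th percentile of each array. The brightest of the passing probes stood for a gene. limma 3.58.1 in R 4.3.3 fitted 1 mean per group to 28250 genes (12 residual and 3.01 prior degrees of freedom; 2-sided; Benjamini-Hochberg; threshold 0.05). Joints are separate mice, and only 4 per group limit the precision. Tested on simulated data of this size, the fit of sham at 6 against 1 week found 34% of genes changed by 1 on the log2 scale and 72% changed by 2. The changed genes were drawn from all 28250, with independent noise at each gene's own SD. The 6 members have residual SDs of 0.84 to 1.53, against a median of 0.43. These rates therefore do not hold for the members. Correlations used 100000 permutations. Per list and comparison, the 3 genes with the largest t were available for naming, and the 10 most and 5 least alike genes per pattern. The members and lists were chosen with earlier results of these data known. Alternatives were other backgrounds, scalings, filters, probe rules, the slide, array weights and single joints left out.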

Additional observations from a re-analysis of the deposited data

Results flagged for a closer look

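Gaps between the 4 joints of a group were screened for the 11 probes (44 groups of 4), and chance flags about 1 in 20 such groups. In 4 of them 1 joint lay far from the other 3. Both Col9a1 probes had this in sham joint 2 at 6 weeks, with levels of 1.90 (other joints -1.16 to -0.97) and -1.10 (other joints -3.07 to -2.90). The second Col11a2 probe had it in the same joint, at 0.70 against -1.91 to -1.58. Col9a3 had it in DMM joint 2 at 6 weeks, at -5.13 against -2.47 to -1.95, where its probe was not well above background.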

How the results depend on the processing

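In the 5 planned comparisons, 0 of the 6 genes passed limma's threshold under any setting run. Of gene differences that left out no joint 275 of 289 kept their direction, and of those that left out 1 joint 254 of 288 did. Weighting arrays by quality (0.0757 for sham joint 2 and 9.12 for sham joint 3 at 6 weeks) moved the calls over all genes from 0 to 3305 (time after sham), 963 (time after DMM), 1 (DMM at 6 weeks) and 2 (difference of effects). It turned Col9a1 (0.29) and Col9a3 (0.022) at 1 week, Col2a1 (0.62), Col9a1 (0.20) and Col9a3 (0.48) at 6 weeks, the difference of effects for Col2a1 (0.41), Col9a3 (0.46), Col11a1 (0.012) and Col11a2 (0.22), Col2a1 after sham (-0.25) and Col9a2 after DMM (-0.46). Col2a1 over time after DMM became -0.021 with normexp and quantile, -0.091 in the authors' deposited table and -0.0019 with the percentile of commonly detected probes.

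With 1 joint left out, the DMM differences at 1 week ranged from -0.36 to 0.45 for Col2a1, -0.89 to 0.28 for Col9a1, -0.22 to 1.08 for Col9a2 and -0.80 to 0.12 for Col9a3. At 6 weeks they ranged from -0.63 to 0.18 for Col2a1, -1.08 to 0.056 for Col9a2, -0.93 to 0.13 for Col9a3 and -0.26 to 0.44 for Col11a2 (0 to 1 genes called). The difference of effects ranged from -0.71 to 0.11 for Col2a1, -1.19 to 0.15 for Col9a1 and -0.70 to 0.50 for Col9a3. Time after sham ranged from -0.11 to 0.57 for Col2a1 and -0.66 to 0.084 for Col11a1 (0 to 1 genes called), and after DMM from -0.38 to 0.43 for Col2a1 (0 to 27 genes called, 27 without DMM joint 3 at 1 week).

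The correlation of Col9a1 with Col11a2, near 0, became 0.051 with normexp, 0.075 in the authors' table, 0.0024 with common probes, 0.12 on slide 2, 0.12 without the 2 farthest joints and 0.41 with group means removed. Others that turned were Col9a2 with Col11a2 (-0.088) and Col9a3 with Col11a2 (-0.026) on slide 1, Col9a2 with Col9a3 (-0.060) on slide 2, and Col9a3 with Col11a1 (-0.092) and Col11a2 (-0.091) without the farthest joints. Without sham joint 2 at 6 weeks Col9a1 with Col11a1 (-0.071) and Col9a3 with Col11a1 (-0.046) and Col11a2 (-0.0995) turned. Col2a1 lost its call with Col9a3 in the authors' table (0.53). It also lost it on slide 1 with Col11a2 (0.73), Col9a1 (0.58) and Col9a3 (0.62), and on slide 2 with Col11a1 (0.60), Col11a2 (0.60), Col9a1 (0.74) and Col9a3 (0.73), where 8 joints remain. Without the farthest joints it was lost with Col11a1 (0.57), Col11a2 (0.55) and Col9a1 (0.59), and without sham joint 2 at 6 weeks with Col9a1 (0.44) and Col9a3 (0.51). Col9a1 with Col9a2 lost its call on slide 2 (0.24). The causes were not tested. No paired analysis was possible because joint numbers only follow the order of the records.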
